A study of Macaca fascicularis and Macaca mulatta and Papio anubis with 20 samples.

Results

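Chemokines and their receptors were described in dorsal root ganglia of *Macaca fascicularis*, where the cell bodies of sensory neurons lie next to the spinal cord. The members were all features whose symbol begins with CCL, CXCL, CCR or CXCR and a digit, with CX3C, or with ACKR, and 50 of 22000 features met this rule. They were 29 ligands, 17 receptors and 4 atypical receptors. The ganglia, fresh frozen and bought from a supplier, were cut into sections 10 µm thick and measured with Visium, which captures RNA from a section on a grid of barcoded spots and counts transcripts as unique molecular identifiers (UMIs). One spot covers part of the tissue and may include several cells, not all of one type. The 16 *M. fascicularis* sections came from 4 specimens with 4 sections each, namely 1 female and 1 male in batch 1 and 1 female and 1 male in batch 2, and no treatment, age or genotype was labelled. Sections with one title code were taken as one specimen, so each combination of sex and batch was a single specimen and its 4 sections were not independent animals. A further 2 sections were labelled *Macaca mulatta* and 2 *Papio anubis*, all in batch 2 and with no sex label.

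Chemokines are small secreted or membrane-tethered proteins that direct the movement of leukocytes. They are grouped by the spacing of their first cysteines into CC, CXC and CX3C families and act through G-protein-coupled receptors named after the same families. Atypical receptors (ACKR) bind chemokines without the usual G-protein signal and take them up, carry them across cells or remove them. In sensory ganglia, CCL2 with its receptor CCR2 and the tethered CX3CL1 with its receptor CX3CR1 are known from work on communication between neurons, satellite glia and macrophages after nerve injury.

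The *M. fascicularis* sections held between 1136433 and 7073134 UMIs under tissue, and the median UMI count of a tissue spot lay between 398 and 5145 over the 15 sections with spot data. The spots of section 3 of the male specimen of batch 2 were not analysed here, and its levels came from the deposited table of gene totals. Of the 16 neuron marker genes 14 were measured and none was at 0, and together they made up 19680 to 35970 UMIs per 1000000 (CPM) in every section. The levels per section are sums over mixed tissue, in which fewer cells of a type and less RNA per cell could not be told apart. Among the *M. fascicularis* sections, those of batch 1 had Space Ranger 2.0.0 and the 7 of batch 2 with a version had 2.1.0, so within this species batch and version could not be told apart. The 4 sections of the other labels, also in batch 2, had 2.0.0.

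The members took few of the counts. They summed to 40321 UMIs, 0.0637% of the 63255489 counted under tissue in *M. fascicularis*, of which 29163 were of ligands, 3985 of receptors and 7173 of atypical receptors. At least 100 UMIs were counted for 23 members, 14 ligands, 7 receptors and 2 atypical receptors. Between 1 and 99 UMIs were counted for 20 members, and 0 for 7, which were CCL16, CXCL5, CXCL17, CCR4, CCR8, CCR9 and CXCR1. A count of 0 allowed a level of up to 0.0474 CPM (3 counts over the 16 sections), and this floor covers counting error only. CCL2 alone made up 38.3% of the member UMIs, and CCL2, ACKR1 and CXCL10 together 61.1%. Capture differs between genes, so these shares describe counts and not the relative amounts of the transcripts.

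Ligands and their known receptors differed widely in how many UMIs were counted for each. CCL1 had 2224 UMIs and its receptor CCR8 had 0. CCL25 had 543 UMIs and its receptor CCR9 had 0. CCL26, also called eotaxin-3, had 630 UMIs and the eotaxin receptor CCR3 had 8. CCL19 and CCL21, which guide dendritic cells and T cells, had 235 and 61 UMIs, and their receptor CCR7 had 8. CXCL9, CXCL10 and CXCL11, which are induced by interferon, had 136, 3573 and 649 UMIs, and their receptor CXCR3 had 46. CXCL8, the main neutrophil attractant, had 465 UMIs and CXCL6 had 490, against 11 of CXCR2 and 0 of CXCR1. CCR10 had 376 UMIs against 3 of CCL28, a ligand of it. CXCL12 had 36 UMIs, against 2354 of CXCR4 and 1530 of ACKR3, which both bind it. CX3CL1 had 2768 UMIs and CX3CR1 had 416. The symbols CCL3, CCL4, CCL5 and CCL27 were not among the features used here, so these ligands could not be counted.

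The male specimen of batch 2 stood apart from the other 3 specimens in its chemokine levels. The 50 members summed to 2051 ± 100.5 CPM there (SD over 4 sections), against 475 ± 95.5 and 431 ± 32.2 CPM in the female and male specimens of batch 1 and 411 ± 59.2 CPM in the female specimen of batch 2. Of the 43 members with a UMI, 6 were higher in each of its 4 sections than in any of the other 12 sections, where 2.44% of all 17322 genes with a UMI were. These were CCL2, CXCL10, CXCL11, CCL7, CXCL9 and CX3CL1. One member, CCL26, was lower in all 4, where 1.41% of all genes were. It is a single specimen, it was singled out after its values were seen, and no test was made of it.

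CCL2, the main attractant of monocytes, lay at 1244, 1063, 870 and 1059 CPM in sections 1 to 4 of this specimen. It lay at 131, 138, 158 and 126 CPM in the female of batch 1, at 164, 150, 142 and 142 CPM in the male of batch 1, and at 59.5, 63.8, 66.2 and 66.4 CPM in the female of batch 2. The specimens of batch 1 overlapped, the female of batch 2 was below all others, and the male of batch 2 was above all others, by 9.04-fold over the mean of the other 12 sections.

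CXCL10 lay at 267, 413, 514 and 413 CPM in the male of batch 2 and between 0.483 and 17.6 CPM in the other 12 sections, a ratio of means of 53.5. The levels in the female of batch 2 were the lowest, at 0.930, 0.713, 0.483 and 1.56 CPM. CXCL11 lay at 44.4, 95.1, 81.5 and 107 CPM in the male of batch 2 and at 0 to 2.48 CPM elsewhere. CXCL9 lay at 9.63, 6.30, 18.8 and 25.5 CPM in it and at 0 to 2.48 CPM elsewhere. These 3 ligands of CXCR3 were thus high in the same 4 sections, and their genes follow one another in the RefSeq annotation of another assembly, T2T-MFA8v1.1, which was used here for gene order only.

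CCL7, a monocyte attractant whose gene lies next to CCL2 in that annotation, lay at 19.9, 21.5, 15.8 and 40.5 CPM in the male of batch 2 and at 0 to 2.76 CPM in the other 12 sections. The same run of neighbouring genes holds CCL11, CCL8, CCL13 and CCL1, and these did not follow one pattern. CCL8 lay at 8.39 to 29.9 CPM in the male of batch 2, which overlapped with 13.7 CPM in section 1 of the female of batch 1. CCL1 was not highest in that specimen, and CCL11 had 8 UMIs in all. CX3CL1 lay at 60.6, 71.4, 78 and 106 CPM in the male of batch 2, and its highest level elsewhere was 57.1 CPM, so its gap was narrow.

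CXCL8 lay at 24.5, 36.2, 39.5 and 38.7 CPM in the male of batch 2 and at 0.483 to 8.05 CPM in 11 of the other 12 sections. The exception, section 1 of the female of batch 1, held 26.7 CPM. CCL19 lay at 6.52, 21.5, 22.7 and 19.4 CPM in the male of batch 2 and reached 10.7 CPM in section 1 of the female of batch 2. Both were therefore high in this specimen with overlap.

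CCL26 ran the other way. It lay at 0, 1.05, 1.48 and 0 CPM in the male of batch 2, from 5 UMIs in all, and at 37.9, 5.35, 9.90 and 25 CPM in the female of batch 2. In batch 1 it lay at 8.08, 2.57, 9.34 and 5.88 CPM in the female and at 2.48, 3.92, 21.2 and 6.503 CPM in the male. Sections of one specimen spread widely, and the male of batch 2 was below all 12 others.

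Marker lists of other cell types moved with this specimen. Its granulocyte list (8 of 9 genes measured, 1 at 0) summed to 349 to 752 CPM, against 12.98 to 139 CPM in the other 12 sections. Its adipocyte list (9 of 9 measured, none at 0) summed to 3923 to 5929 CPM, against 1005 to 2770 CPM. Its macrophage list (12 of 14 measured, none at 0) summed to 659 to 1329 CPM, within the range of 751 to 1359 CPM elsewhere apart from 1 section, and its lymphocyte list (13 of 13 measured, 1 at 0) to 19.3 to 48.4 CPM against 16.4 to 60.3 CPM. A list of genes of inflammatory induction, such as NFKBIA and IL6 (11 of 12 measured, none at 0), summed to 809 to 921 CPM there and to 301 to 700 CPM elsewhere. The part of these cells in the chemokine levels was not tested.

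**Figure D1:**
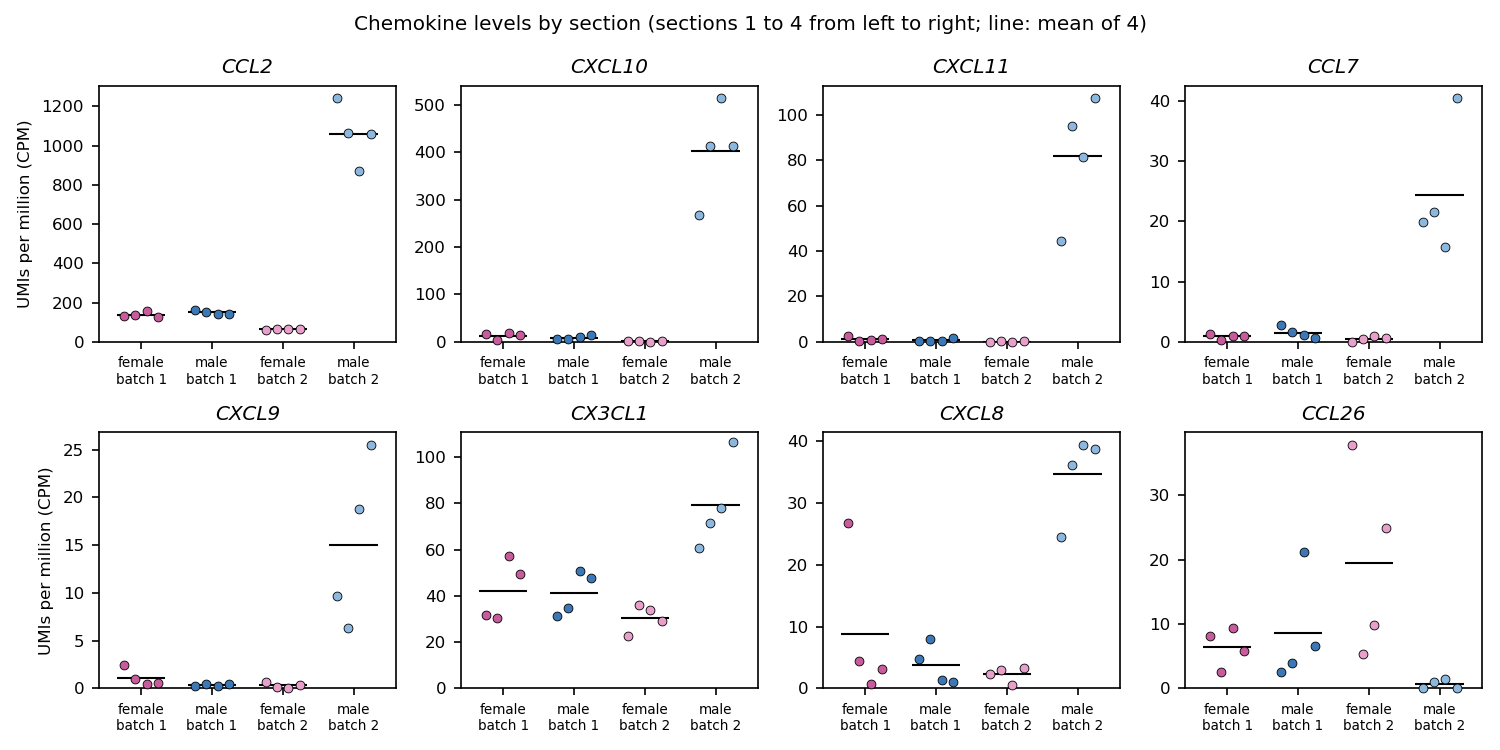
Levels of 8 chemokines in UMIs per 1000000 (CPM, y axis, each from 0) by specimen (x axis). Each point is a section, sections 1 to 4 run from left to right, and the line is the mean of the 4 sections. CCL2, CXCL10, CXCL11, CCL7, CXCL9 and CX3CL1 were higher in all 4 sections of the male of batch 2 than in the other 12 sections, and CCL26 was lower.

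The female specimen of batch 2 had the lowest levels of several members. Of the 43 members with a UMI 5 were lower in its 4 sections than in the other 12, against 7.42% of all genes, among them CCL2, CXCL10, CCL8 and CCR1. CCR1 lay at 1.63, 0.713, 0.724 and 1.17 CPM, while the other 12 sections began at 2.57 CPM. CCL1 was higher in its 4 sections than in all others, against 3.24% of all genes. In the male of batch 1, 1 member, ACKR1, was lower than in all other sections, against 0.0635% of all genes.

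The batches were compared by summing the 4 sections of each specimen and fitting batch and sex with edgeR's quasi-likelihood test. Of 28 members tested, 6 differed between batches at an adjusted p under 0.05 (Benjamini-Hochberg over all genes), where 364 of 12650 genes did (2.88%). ACKR1, CCL1 and CCL25 were higher in batch 2 (1.26% of all genes were) and CX3CR1, CCR6 and ACKR3 lower (1.61%). The median log2 fold change of the members tested was -0.21, against -0.01 over all genes. The count rested on few sections: it was 1 without section 1 of the male of batch 2, 2 without section 2 of that specimen, and 11 without section 4 of the female of batch 1. By sections, 1 member (ACKR1) was higher in all 8 sections of batch 2 than in any of batch 1, against 1.93% of all genes, and 4 (CX3CR1, CXCR6, CCR6 and CXCR4) were lower, against 4.02%.

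CCL1, a CC ligand known from activated T cells, lay at 22.4, 28.8, 7.86 and 8.43 CPM in the female and 30.1, 19.4, 12.1 and 9.76 CPM in the male of batch 1. In batch 2 it lay at 117, 52.2, 51.7 and 68.4 CPM in the female and 40.7, 37.8, 35.5 and 22.0 CPM in the male. It was higher in batch 2 by 1.82 on the log2 scale (SE 0.33, adjusted p = 0.0319, edgeR). The sections overlapped in 1 specimen only, since section 4 of the male of batch 2 lay below 3 sections of batch 1. Its adjusted p was 0.0704 without section 4 of the male of batch 1, and 0.0891 and 0.0832 without section 1 or 2 of the male of batch 2 (edgeR).

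CCL25, a ligand best known from thymus and gut, lay at 2.30 to 6.21 CPM in the female and 2.69 to 7.45 CPM in the male of batch 1. It lay at 10.5 to 16.3 CPM in the female and 6.16 to 24.7 CPM in the male of batch 2, and was higher in batch 2 by 1.65 on the log2 scale (SE 0.34, adjusted p = 0.0494, edgeR). This call was at the limit of the threshold: its adjusted p passed 0.05 without section 2 of the female or section 3 or 4 of the male of batch 1, or without section 3 of the female or section 1 or 2 of the male of batch 2. It lay between 0.0131 and 0.116 over the sections left out (edgeR).

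CX3CR1, the receptor of CX3CL1 and a marker of monocytes and some tissue macrophages, had the largest log2 difference of the called members. It lay at 2.48, 0.936, 19.3 and 22.0 CPM in the female and 2.48, 1.45, 19.1 and 12.9 CPM in the male of batch 1, and at 0 to 0.930 CPM in the 8 sections of batch 2. Its log2 fold change was -4.52 (SE 0.53, adjusted p = 0.00688, edgeR). Every section of batch 1 lay above every section of batch 2, but the closest were about equal, at 0.936 and 0.930 CPM. In batch 1 the high values were those of sections 3 and 4 and the low ones those of sections 1 and 2, in the female as in the male. With sections 3 and 4 alone, a comparison added after the data were seen, the log2 fold change was -5.36 (adjusted p = 0.0013, edgeR). With limma-voom on sections and the specimen as a random block the adjusted p was 0.127. By inspection after the values were seen, CX3CL1, CXCL6 and CXCL10 were also lower in section 2 than in sections 3 and 4 of the female and of the male in batch 1, and CCL1 was higher in sections 1 and 2 than in sections 3 and 4.

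CCR6, a receptor of B cells and T-helper cells, lay at 2.52 to 4.97 CPM in the female and 1.70 to 4.03 CPM in the male of batch 1. It had 5 UMIs over the 8 sections of batch 2, at 0 to 0.494 CPM, with a log2 fold change of -3.94 (SE 0.69, adjusted p = 0.0293, edgeR). Without section 1 or 2 of the male of batch 2 the adjusted p was 0.0783 and 0.0644. CXCR6, the receptor of CXCL16 on T cells, had 39 UMIs in batch 1, at least 1 in each section, and 0 in batch 2. Its level was at least 9.97-fold lower in batch 2 (3 counts over the batch as the floor), with an adjusted p of 0.0545 by edgeR, above the threshold. CXCR2 and CCR3 also had 0 UMIs in batch 2, against 11 and 8 in batch 1.

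CXCR4, the receptor of CXCL12 on most leukocytes, lay at 88.2, 48.2, 52.0 and 45.5 CPM in the female and 49.7, 49.98, 46.5 and 33.4 CPM in the male of batch 1. It lay at 21.6, 32.1, 18.4 and 26.0 CPM in the female and 20.8, 21.5, 18.3 and 16.7 CPM in the male of batch 2. The sections did not overlap, but the log2 difference of -0.98 (SE 0.23, adjusted p = 0.0661, edgeR) did not pass the threshold. The lymphocyte list summed to 34.1 to 60.3 CPM in batch 1 and 16.4 to 48.4 CPM in batch 2, and the macrophage list to 952 to 1359 CPM and 659 to 1329 CPM. Their part in the receptor levels was not tested.

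ACKR1, which binds many CC and CXC ligands on venular endothelium and red blood cells, lay at 58.4, 46.3, 50.1 and 56.0 CPM in the female and 37.0, 46.3, 43.3 and 40.7 CPM in the male of batch 1. It lay at 146, 116, 120 and 123 CPM in the female and 113, 165, 334 and 187 CPM in the male of batch 2. All 8 sections of batch 2 were above all 8 of batch 1, and the log2 fold change was 1.84 (SE 0.25, adjusted p = 0.0122, edgeR). Without section 1 of the male of batch 2 the adjusted p was 0.0518. The endothelium list summed to 216 to 394 CPM in batch 1 and 225 to 453 CPM in batch 2, and the red blood cell list (2 of 9 genes measured, 1 at 0) to at most 2.56 CPM in any section. The highest ACKR1 level and the highest endothelium sum were both in section 3 of the male of batch 2, but not all sections followed this order. Section 1 of the female of batch 1 had an endothelium sum of 394 CPM with ACKR1 at 58.4 CPM. Section 1 of the female of batch 2 had a sum of 238 CPM with ACKR1 at 146 CPM. The part of endothelium in the ACKR1 levels was not tested.

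ACKR3, which takes up CXCL12 and CXCL11, lay at 84.5, 19.4, 30.8 and 27.3 CPM in the female and 25.7, 30.2, 67.2 and 29.3 CPM in the male of batch 1. It lay at 18.4, 9.80, 7.002 and 8.20 CPM in the female and 5.90, 14.2, 21.2 and 5.28 CPM in the male of batch 2. It was lower in batch 2 by a log2 fold change of -1.51 (SE 0.27, adjusted p = 0.0293, edgeR), with 1 section of batch 2 above the lowest of batch 1. The adjusted p was 0.0519 without section 3 of the male of batch 1, and 0.0781 and 0.0618 without section 1 or 2 of the male of batch 2. The fibroblast list (12 of 12 measured, none at 0) summed to 882 to 2814 CPM in batch 1 and 164 to 539 CPM in batch 2, and its part in this was not tested. Section 1 of the female of batch 1, with the highest ACKR3 level, also held the highest smooth muscle sum of all sections, 928 CPM against 91.9 to 364 CPM.

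Other members with at least 100 UMIs that were not called overlapped between the batches in their section levels. CXCL16 lay at 20.02 to 44.7 CPM in the female and 13.3 to 35.9 CPM in the male of batch 1, and at 18.4 to 24.2 CPM in the female and 7.14 to 15.8 CPM in the male of batch 2. CXCL6 lay at 2.11 to 12.01 CPM, 2.48 to 14.3 CPM, 2.09 to 10.2 CPM and 6.42 to 11.6 CPM in the same order. CCR10, the receptor of CCL28, lay at 1.86 to 4.45 CPM and 3.96 to 5.52 CPM in batch 1 and at 6.77 to 12.3 CPM and 4.40 to 8.41 CPM in batch 2, so that the female of batch 2 was above both specimens of batch 1 and the male was not. CCR2, the receptor of CCL2 and CCL7 on monocytes, lay at 0.468 to 5.37 CPM and 2.15 to 3.51 CPM in batch 1, and at 0.465 to 0.713 CPM in the female and 0.494 to 7.04 CPM in the male of batch 2.

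**Figure D2:**
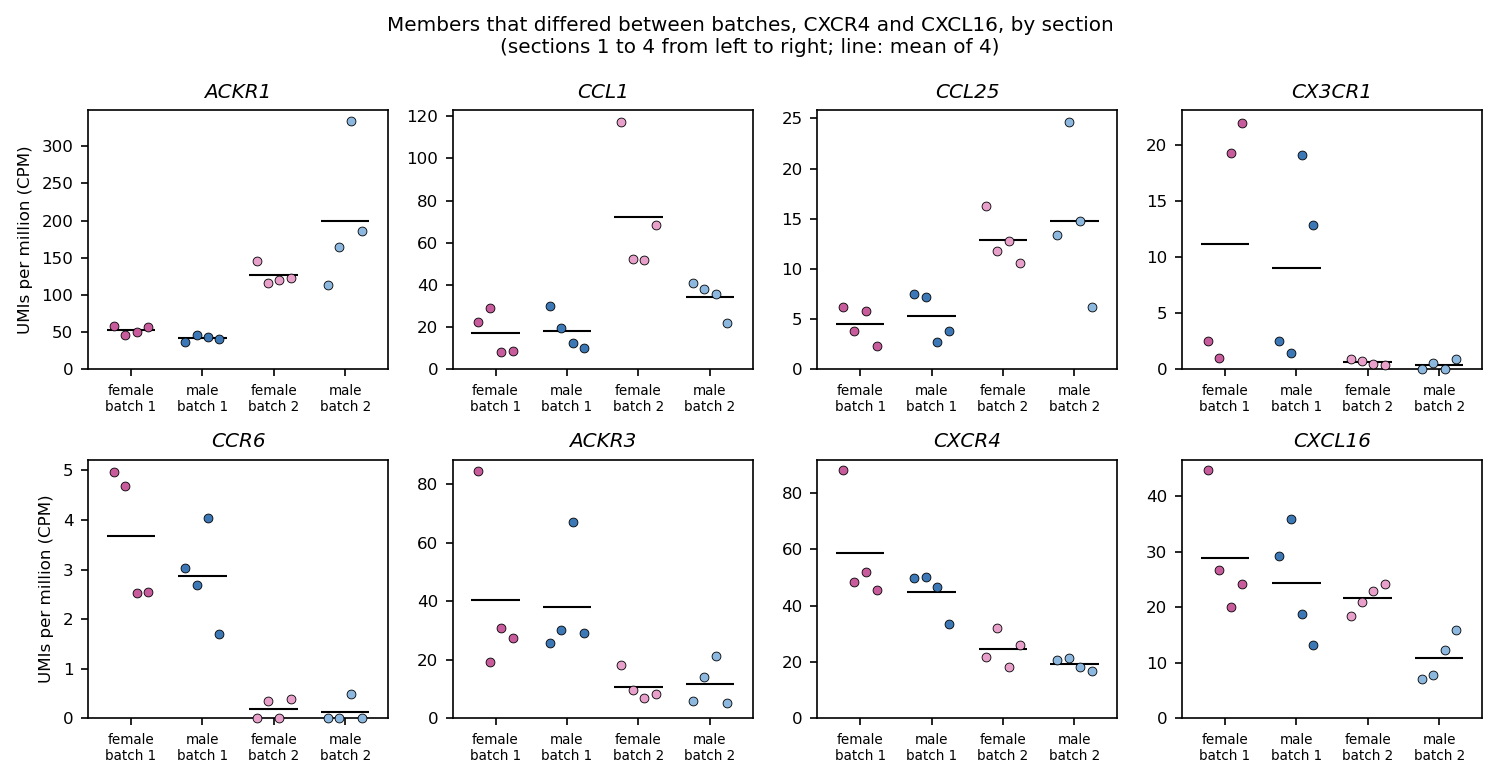
Levels of 6 members called between batches, with CXCR4 and CXCL16, in UMIs per 1000000 (CPM, y axis, each from 0) by specimen (x axis). Each point is a section and the line is the mean of the 4 sections. ACKR1 did not overlap between batches, and the CX3CR1 levels of batch 1 fell into sections 3 and 4, at 12.9 to 22.0 CPM, and sections 1 and 2, at 0.936 to 2.48 CPM.

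Sex was compared in the same fit. Of 12650 genes 0 were called (0.0%) at an adjusted p under 0.05, and so were 0 of the 28 members. At an unadjusted p under 0.05 there were 169 genes (1.34%) and 3 members, CCL7, CXCL11 and CCL2, all lower in the females. By DESeq2 0 members were called as well. By sections, 0 of 43 members did not overlap between the sexes (0.0% of all genes were higher in females and 0.0404% lower). The differences were larger in batch 2: the log2 ratio of female to male for CCL2 was -4.08 in batch 2 and -0.05 in batch 1, for CXCL11 -8.88 and 0.14, and for CCL7 -5.40 and -0.67.

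To place the members in the tissue, spots with at least 200 UMIs were ranked in each section by the share of UMIs from a marker list, and the top 10% were compared with the other spots in sums per specimen, with the specimen as a block. The 10 lists hold none of the members, and 18594 spots of 15 sections entered. Spots chosen by the Schwann cell, satellite glia, fibroblast, endothelium, smooth muscle, macrophage and adipocyte lists had lower ranges of median depth than the other spots. For the Schwann cell list the median over the sections was 276 to 1111 UMIs, against 704.5 to 8228 in the others. The part of depth in the calls was not tested. Over the 10 lists, 59 of 234 member tests passed an adjusted p under 0.05 (edgeR, adjusted over all genes of a list's fit), 39 higher and 20 lower, and they fell on 21 of 27 members tested. In 35 of the 59 the direction was the same in 4 of 4 specimens. With any 1 of the 4 specimens left out, 30 of the 59 remained called, and the rest were lost without some specimen or could not be tested without it. Without the specimen as a block 5 of the 59 were called. With DESeq2 38 of the 59 remained called and 21 kept their direction only. DESeq2 called 2 members for the satellite glia list, 4 for the macrophage list and 0 for the adipocyte list. The spots chosen by different lists overlap, for example 31.6% of the smooth muscle spots were also fibroblast spots and 26.6% also endothelium spots. With spots that no other list chose, 26 of the 59 remained called, 25 kept their direction only, 4 reversed and 4 could not be tested.

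In spots rich in smooth muscle genes, 8 of 25 members were higher (13.6% of all genes were) and 1 lower (12.8%). CCL26 had the largest difference, 4.52 on the log2 scale (SE 0.27, adjusted p = 3.56e-11, edgeR). It lay at 71.3 CPM against 4.33 CPM in the female of batch 1, 88.5 against 4.81 CPM in the male of batch 1, and 440 against 11.5 CPM in the female of batch 2. In the male of batch 2 it had 0 UMIs in these spots and 0.344 CPM in the others. In 3 of 4 specimens it was thus high in the same kind of spot, and with spots that no other list chose the log2 fold change was 5.17. A single spot of section 4 of the female of batch 2 held 23 UMIs of CCL26, the most of any spot.

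ACKR3 was higher in the same spots by 3.52 on the log2 scale (SE 0.21, adjusted p = 3.16e-11, edgeR). It lay at 255 against 24.2 CPM, 312 against 25.3 CPM, 145 against 7.78 CPM and 39.6 against 5.68 CPM in the females and males of batch 1 and then batch 2, so all 4 specimens showed it. CXCL8 (2.14, SE 0.35, adjusted p = 0.000122), CCL19 (2.79, SE 0.51, adjusted p = 0.000329) and CCL21 (3.16, SE 0.59, adjusted p = 0.000466, from 16 UMIs in these spots) were also higher. CXCL12 and CCL13 were called higher from 8 and 7 UMIs in these spots. Without the female of batch 1 the call of CCL21 was lost (2.50, adjusted p = 0.156, edgeR). ACKR1 was higher by 0.61 (SE 0.20, adjusted p = 0.031), in 3 of 4 specimens, and this call rested on single specimens. Its adjusted p was 0.224 without the female of batch 1, 0.175 without the male of batch 1 and 0.0819 without the male of batch 2 (edgeR), where the log2 fold change was 0.38. In spots that no other list chose it was 0.11. The smooth muscle spots were shallow, with a median of 307.5 to 1668 UMIs over the sections against 693 to 8228 in the others, and the part of depth was not tested.

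In spots rich in fibroblast genes, 5 of 26 members were higher (14.7% of all genes) and 3 lower (16%). ACKR3 was higher by 3.59 on the log2 scale (SE 0.22, adjusted p = 3.04e-16, edgeR), at 316, 284, 171 and 41.4 CPM in the 4 specimens against 24.7, 28.9, 7.45 and 6.11 CPM in the other spots. CCL26 was higher by 3.49 (SE 0.27) and CCL19 by 3.53 (SE 0.47), each in 4 of 4 specimens. For CCL26 the direction in the male of batch 2 rested on at most 2 spots. CCL21 was higher by 4.21 (SE 0.59), with 22 UMIs in these spots and 38 in the others. CXCL8 was higher by 1.68 (SE 0.38), but in spots that no other list chose its log2 fold change was -0.43. CCL1, CCL2 (-0.73, SE 0.24) and CXCL6 (-1.72, SE 0.67, from 4 UMIs) were lower. The call of CCL2 was lost without the female of batch 1, the male of batch 1 or the female of batch 2 (adjusted p = 0.0538, 0.255 and 0.0926, edgeR). That of CXCL6 was lost whichever specimen was left out, with adjusted p from 0.0529 to 0.257 (edgeR).

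CCL26 and ACKR3 shared spots. In the female of batch 1, 33.3% of 90 spots with a CCL26 UMI also held one of ACKR3, against 9.84% of the other spots. The shares were 48.8% of 125 spots against 9.69% in the male of batch 1 and 14.5% of 207 spots against 2.26% in the female of batch 2. The median depth of the spots with CCL26 was higher in batch 1, at 2958.5 and 2861 UMIs against 1943 and 2012, and about equal in the female of batch 2, at 882 against 940. In the male of batch 2 only 2 spots held CCL26. Spots of a section are not independent, so these shares are a description.

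In spots rich in endothelium genes, 7 of 23 members were higher (13% of all genes) and 1 lower (11.6%). ACKR1 was higher by 0.79 (SE 0.15, adjusted p = 0.00034, edgeR) in 4 of 4 specimens. It lay at 96.2 against 49.7, 66.9 against 40.8, 144 against 126 and 333 against 129 CPM, in the order of specimens above, so the contrast was least in the female of batch 2. The endothelium spots were shallow, with a median of 436 to 1775 UMIs over the sections against 623.5 to 8184 in the others. An ACKR1 UMI was found in 11.6% of them and in 18.4% of the other spots, and the part of depth was not tested. ACKR3 (2.25, SE 0.17), CCL26 (2.27, SE 0.24) and CCL19 (3.05, SE 0.50) were higher in 4 of 4 specimens. Again the direction of CCL26 in the male of batch 2 rested on at most 2 spots. In spots that no other list chose, the log2 fold changes were 0.27 for ACKR1, 0.55 for ACKR3 and 0.88 for CCL26. CXCL10 was higher by 0.77 (SE 0.19, adjusted p = 0.00419), at 622 against 320 CPM in the male of batch 2. It was lower in these spots in the male of batch 1, at 8.84 against 9.70 CPM. Without the male of batch 2 the difference of CXCL10 was 0.45 (adjusted p = 0.414, edgeR), and in spots that no other list chose it was 0.15. CXCL8 was higher by 1.25 (SE 0.36, adjusted p = 0.0128), but the sign turned to -1.28 in spots that no other list chose. CX3CR1 was higher by 1.24 (SE 0.35, adjusted p = 0.0107), and all 38 UMIs in these spots were in batch 1. Without the female or the male of batch 1 neither call was kept, with adjusted p of 0.138 and 0.0884 for CXCL8 and 0.191 and 0.212 for CX3CR1 (edgeR).

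In spots rich in macrophage genes, 7 of 24 members were higher (7.38% of all genes) and 0 lower (4.69%). CXCL16, a ligand tethered to the membrane of macrophages and dendritic cells, was higher by 1.22 (SE 0.18, adjusted p = 0.00143, edgeR), at 45.1 against 23.9, 56.7 against 21.2, 55.2 against 21.0 and 14.3 against 8.22 CPM. CCR1, a receptor of monocytes and macrophages, was higher by 1.68 (SE 0.33, adjusted p = 0.00776), at 19.3 against 6.62, 13.5 against 4.23, 4.80 against 0.918 and 11.5 against 3.43 CPM. CXCR4 was higher by 0.73 (SE 0.15, adjusted p = 0.0083). These 3 members were higher in 4 of 4 specimens. CXCL10 (0.82, SE 0.16), CCL21 (2.14, SE 0.63) and CCR2 (1.67, SE 0.52, adjusted p = 0.0496) were higher in 3 of 4. CCL26 was called too (1.83, SE 0.52, adjusted p = 0.0343), but without the female of batch 2 its log2 fold change was 0.04 (adjusted p = 0.966), and its adjusted p was 0.0742 without the female of batch 1 and 0.0522 without the male of batch 2 (edgeR). The calls of CXCL16 and, where it could be tested, CCR2 were kept with 1 specimen left out. That of CCR2 was lost with DESeq2 (adjusted p = 0.149) and with at least 500 UMIs per spot (adjusted p = 0.0683, edgeR). In spots that no other list chose the log2 fold change of CCR2 was 0.90 (adjusted p = 0.614, edgeR). Without the female or the male of batch 1 the adjusted p was 0.0909 and 0.0823 for CCR1, 0.137 and 0.0947 for CXCR4, and 0.0775 and 0.0691 for CXCL10 (edgeR). Without the male of batch 2 it was 0.0914 for CXCL10 and 0.0783 for CCL21, and without the male of batch 1 it was 0.138 for CCL21 (edgeR). CX3CR1 (1.00, SE 0.32, adjusted p = 0.058) did not pass.

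In spots rich in granulocyte genes, 4 of 23 members were higher (0.956% of all genes) and 0 lower (0.0911%). CXCL8 was higher by 1.65 (SE 0.25, adjusted p = 2.35e-05, edgeR) in 4 of 4 specimens, at 22.1 against 3.46, 8.54 against 3.14, 4.81 against 2.17 and 66.6 against 28.0 CPM. ACKR1 (0.40, SE 0.09) was higher in 4 of 4 specimens, but without the male of batch 2 it was 0.24 (adjusted p = 0.348, edgeR). ACKR3 (0.65, SE 0.13) turned to -0.36 in spots that no other list chose, and its adjusted p was 0.107 without the female of batch 1 (edgeR). CXCL10 (0.60, SE 0.14) turned to -0.13 without the male of batch 2. DESeq2 called 1 member for this list. By DESeq2 the log2 fold changes of ACKR1, ACKR3 and CXCL10 were 0.45, 0.66 and 0.28, and none of these passed the threshold. CXCR1 and CXCR2, the neutrophil receptors of CXCL8, had 0 and 11 UMIs in all and were not tested. In spots rich in lymphocyte genes 0 of 24 members were called (edgeR), where 0.173% of all genes were higher and 0.00909% lower. At an unadjusted p under 0.05 there were 9 members, all with a positive log2 fold change (3.56% of all genes were higher at this p), and DESeq2 called 1.

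In neuron-rich spots 2 of 23 members were higher (21.7% of all genes) and 11 lower (23.1%). The spots were led by NEFH, NEFL, VSNL1 and SNAP25, while GAP43 and INA of the same list were lower in them. CX3CL1, which neurons are known to carry on their membrane, was higher by 0.80 (SE 0.10, adjusted p = 1.92e-06, edgeR), at 71.9 against 39.4, 61.6 against 36.4, 43.9 against 26.5 and 79.9 against 70.9 CPM, in 4 of 4 specimens. CXCL6, a CXC ligand that attracts neutrophils, was higher by 0.82 (SE 0.18, adjusted p = 0.00127) in 3 of 4 specimens and lower in the male of batch 2, at 7.01 against 8.59 CPM.

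The members lower in neuron-rich spots were led by CCL26 (-2.69, SE 0.24) and ACKR3 (-1.84, SE 0.18, in 3 of 4 specimens). CCL1 (-1.18, SE 0.12), CCR10 (-1.08, SE 0.24), CXCL16 (-0.79, SE 0.13), CCL2 (-0.36, SE 0.08), CXCR4 (-0.33, SE 0.11), CXCL10 (-0.52, SE 0.12) and CCL19 (-1.41, SE 0.41) were lower too, each in 4 of 4 specimens. CCR6 was lower too (-1.16, SE 0.46, adjusted p = 0.0487, edgeR), from 11 UMIs in these spots. Its adjusted p was 0.33 without the male of batch 1 and 0.0518 without the female of batch 2, and that of CCL19 was 0.12 without the female of batch 2 (edgeR). The depth of spots went with this contrast: the median over the sections was 847 to 12883.5 UMIs in the neuron-rich spots and 479.5 to 6408 in the others, and its part was not tested.

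CCL1 was the one member called lower for 7 of the 10 lists, namely neuron, myelinating Schwann cell, satellite glia, fibroblast, endothelium, smooth muscle and adipocyte, and it was called higher for none. Its log2 fold changes ran from -0.85 (SE 0.28) in adipocyte-rich spots to -2.12 (SE 0.43) in fibroblast-rich spots. The neuron, Schwann cell, fibroblast and smooth muscle calls were kept whichever specimen was left out, and the other 3 were not. Without the female of batch 1, the male of batch 1 or the female of batch 2 the adjusted p of CCL1 was 0.0997, 0.143 and 0.162 in adipocyte-rich spots and 0.103, 0.18 and 0.12 in satellite glia spots (edgeR). In endothelium-rich spots it was 0.0832 without the male of batch 1 and 0.126 without the female of batch 2 (edgeR). The most UMIs of CCL1 in a spot were 13, in section 1 of the female of batch 2, and 6.90% of 21897 tissue spots held one. Apart from the neuron list, the lists of these calls chose shallow spots. Spots with a CCL1 UMI were deeper, with medians of 11116 against 1802 and 7176 against 1841 UMIs in the female and male of batch 1. In batch 2 the medians were 7029 against 709 and 3351 against 972 UMIs. Of the neuron-rich spots 10.2% held CCL1, against 7.8% of the others. The part of depth was not tested.

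Spots rich in satellite glia genes had CCL26 (2.48, SE 0.28), ACKR3 (1.62, SE 0.22), CXCL8 (1.12, SE 0.42) and CCL19 (1.64, SE 0.56) higher (4 of 22 members, 13.4% of all genes) and CCL1 and ACKR1 (-0.50, SE 0.19) lower (2, 14.8%). CCL19 turned to -0.54 in spots that no other list chose, and ACKR3 was 0.70 in them (adjusted p = 0.344, edgeR). The calls of CXCL8, CCL19 and ACKR1 were each lost on leaving out some specimen, with adjusted p of up to 0.277, 0.436 and 0.214 (edgeR). Spots rich in myelinating Schwann cell genes had ACKR3 (0.78, SE 0.29, 4 of 4 specimens) and CXCL12 (3.20, SE 1.04, from 5 UMIs) higher, 2 of 23 members against 14.5% of all genes, and CCL1 lower (1, 17.5%). The adjusted p of ACKR3 was 0.153 without the female and 0.338 without the male of batch 1 (edgeR). In Schwann cell spots that no other list chose its log2 fold change was 0.29 (adjusted p = 0.825, edgeR). In adipocyte-rich spots 0 of 21 members were higher (10.2% of all genes) and CCL1 alone was lower (10.7%).

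**Figure D3:**
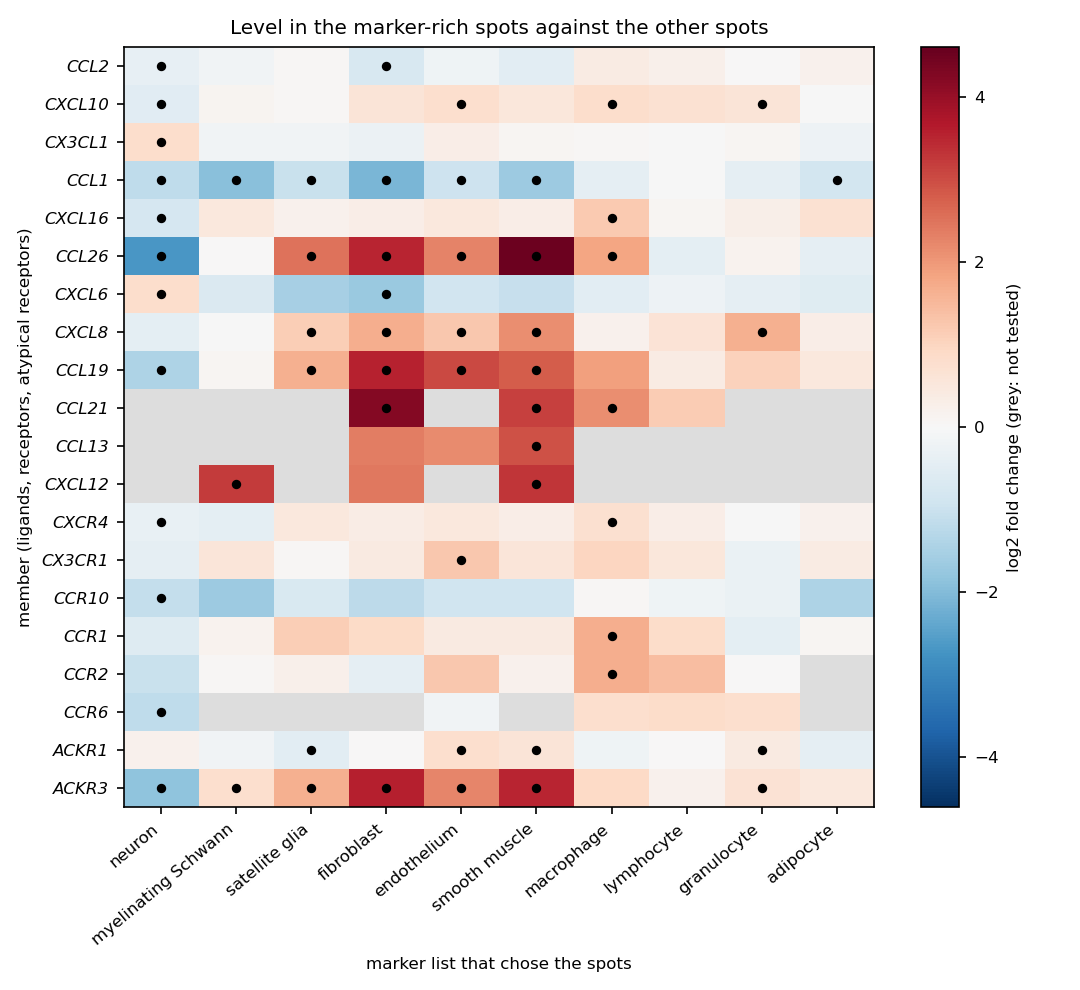
Log2 fold change (colour) of 20 of the 21 members called for at least 1 list, in the 10% of spots richest in each marker list (columns) against the other spots, from sums of 4 specimens. Black points mark an adjusted p under 0.05 and grey cells were not tested. CCL26, ACKR3, CCL19 and CXCL8 were higher for the fibroblast, endothelium and smooth muscle lists, and CCL1 was lower for 7 lists.

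**Figure D4:**
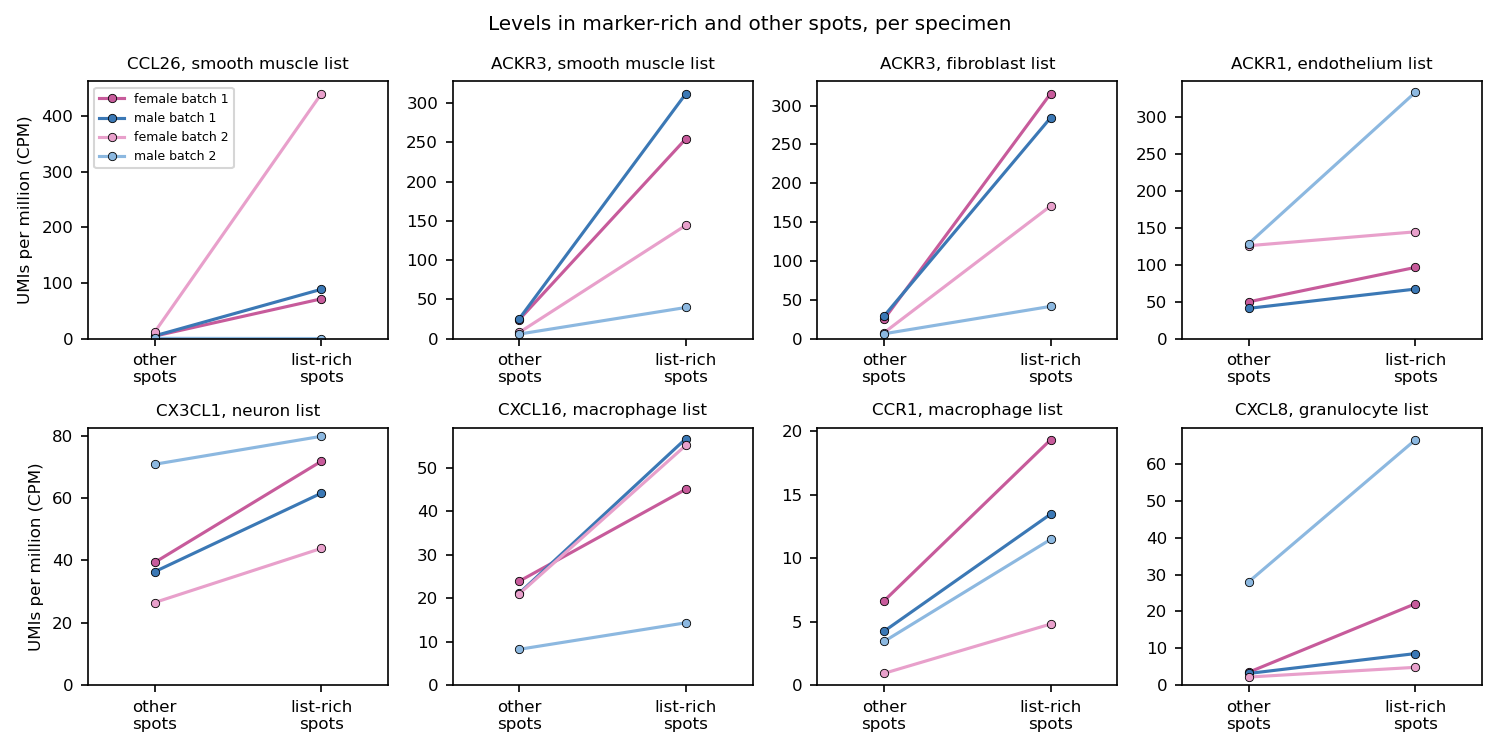
Level in UMIs per 1000000 (CPM, y axis from 0) in the other spots and in the list-rich spots (x axis) for 8 pairs of a member and a list. Each line is a specimen. CCL26 in smooth muscle spots reached 440 CPM in the female of batch 2 and 0 CPM in the male of batch 2, and the remaining 7 pairs ran upward in 4 of 4 specimens.

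Other genes of chemokine biology were followed through lists. Between batches and sexes 0 genes of the 4 lists were called (edgeR), of 4 tested genes of other chemokine ligands and receptors, 5 of shedding and cleavage, 16 of receptor signalling and 10 of inflammatory induction. At an unadjusted p under 0.05 there were 1, 4, 4 and 3 of them between batches (18.9% of all genes) and 1, 0, 0 and 2 between sexes (1.34%), and DESeq2 called 1 of the inflammatory list between batches. In the spots, MMP14 and ADAM10, proteases that cut chemokines or free tethered ones, were lower in neuron-rich spots (-0.44, SE 0.16, and -0.61, SE 0.09). Both were higher in spots rich in Schwann cell, satellite glia, fibroblast, endothelium, macrophage and adipocyte genes, with log2 fold changes of 1.28 (SE 0.26) and 1.49 (SE 0.17) for Schwann cell genes. IL6, NFKBIA, TNFAIP3, RELA and IL1R1 of the inflammatory list, 5 of 9 tested, were higher in fibroblast-rich spots, with IL6 at 2.86 (SE 0.39) and NFKBIA at 1.56 (SE 0.19). CD74, which binds the chemokine-like MIF, was higher in macrophage-rich spots by 1.26 (SE 0.14), and MIF was higher in neuron-rich spots by 0.34 (SE 0.07).

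Moran's I, which is high where nearby spots have similar levels of a gene, was given per gene and section in the authors' deposited table. In the authors' deposited table, of 43 listed members 2 had an adjusted p under 0.05 in at least 8 of 16 sections, where 1506 of 17322 genes did (8.69%). These were CCL2, in 13 sections with a median I of 0.048, and ACKR3, in 9 sections with a median I of 0.0277. ACKR3 passed in all 8 sections of batch 1 and in 1 of batch 2, per the authors' deposited table. CCL26, ACKR1 and CXCL10 passed in 7 sections each in the authors' deposited table, CXCL10 in all 4 of the male of batch 2 and CCL26 in 0 of them. The highest I of a member in the authors' deposited table was 0.239, for CCL2 in section 2 of the female of batch 1. In the authors' deposited table there were 23 members that passed in 0 sections, among them CX3CR1 and CCL7, and the median I of the members was -0.000794 against -0.000594 over all genes.

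Part of the signal lay beside the tissue. Off-tissue spots held 1.92% to 17.9% of a section's UMIs over the 15 sections. ACKR3 was at 52.7 CPM off tissue and 24.3 CPM under it, with a higher level off tissue in 14 of 15 sections. CCL26 was at 18.8 and 10.2 CPM and was higher off tissue in 13 of 15. CCL1 went the other way, with 19.4 and 35.2 CPM and a higher level off tissue in 2 of 15, and so did CCR10, with 2.40 and 5.99 CPM. CCL2 was at 260 and 223 CPM, higher off tissue in 5 of 15.

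For the other labelled species, levels were computed over the 13089 genes shared by symbol, 46 of which are members. The identifiers of the sections labelled *M. mulatta* carry the Ensembl prefix of *P. anubis* and the reverse, so the labels may be crossed, and each label stands for 1 specimen. Species, specimen, batch and gene annotation could not be told apart and no test was made. The part of annotation in the levels below was not tested. A member was counted as different where its mean differed at least 4-fold with no overlap between sections. By this rule 4 members were higher and 3 lower in the sections labelled *M. mulatta* (8.10% and 17.2% of the genes with a UMI), and 6 were higher and 5 lower in those labelled *P. anubis* (8.25% and 8.89%). Depth differed: totals were 190376 and 264661 UMIs, 250 of them of members, under the label *M. mulatta*, and 595020 and 12595205, with 5092 of members, under *P. anubis*.

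CCL26 set the sections labelled *M. mulatta* apart. It lay at 649 and 725 CPM over shared genes in them, from 63 and 98 UMIs, and at 0 to 62.3 CPM in the 16 *M. fascicularis* sections, where the mean was 14.0 ± 17.2 CPM (SD, n = 16). The ratio of means was 49.0, and over pooled counts it was 44.4 (95% exact interval 37.1 to 52.9, counting error only). In the authors' deposited table its Moran's I in section 1 of these was 0.0465. It lay at 45.9 and 36.6 CPM in the sections labelled *P. anubis*, within the range of *M. fascicularis*.

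Of the other members higher in the sections labelled *M. mulatta*, CCL8 had 5 and 7 UMIs (51.5 and 51.8 CPM against at most 45.2), CXCL12 had 1 and 6, and CXCR3 had 1 each, with an interval of its ratio of 0.889 to 28.9. CXCL10, CX3CL1 and CXCR4 were lower, with 0, 0 and 2 UMIs. From its 0 counts, CX3CL1 was lower by a factor of at least 4.31 (lower bound of the 95% exact interval). CXCL10 lay at 0.811 to 26.8 CPM in the *M. fascicularis* sections outside the male of batch 2, below the higher of the 3-count floors of 30.9 and 22.2 CPM, so its difference rested on that specimen. ACKR3 also had 0 UMIs there, but these floors lay above some *M. fascicularis* sections, so a difference was not detectable at this depth. CXCR4 lay as low as 25.3 CPM in *M. fascicularis*, below the floor of 30.9 CPM, so its lack of overlap was not secured either. The ratio of *M. fascicularis* over these sections for CXCR4 was 6.77 over pooled counts (95% exact interval 1.87 to 55.9).

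In the sections labelled *P. anubis*, CXCL14 had 19 and 223 UMIs, at 58.1 and 32.8 CPM, against 1 UMI in all 16 *M. fascicularis* sections. The ratio over pooled counts was 1370 (95% exact interval 244 to 54400). CXCL6 lay at 48.9 and 124 CPM, against 3.23 to 22.1 CPM in *M. fascicularis*. CCL13 lay at 12.2 CPM in both, against 0 to 4.67 CPM. CCR6 lay at 12.2 and 9.41 CPM, against 0 to 7.48 CPM, from 4 UMIs in section 1, and its ratio over pooled counts was 3.47 (95% exact interval 2.53 to 4.73), under 4-fold. CXCR2 and CXCR1 were higher from 19 and 3 UMIs.

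ACKR3 had 0 and 1 UMIs in the sections labelled *P. anubis*, at 0 and 0.147 CPM, against 7.98 to 127 CPM in the 16 *M. fascicularis* sections. CXCL10 also had 0 and 1 UMIs, against 0.811 to 807 CPM. CXCL8 had 0 UMIs and CCL1 had 0 and 46, and these were lower as well. The 3-count floor of section 1 was 9.17 CPM, above the lowest *M. fascicularis* levels of ACKR3, CXCL10 and CXCL8 (7.98, 0.811 and 0.811 CPM). For these members the lack of overlap was therefore secured in section 2 only, where the floor was 0.441 CPM. The ratio of *M. fascicularis* over these sections for ACKR3 was 270 (95% exact interval 48.4 to 10700). CCL2 was not different by the rule in either label, at 216 and 237 CPM and at 91.8 and 251 CPM.

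**Figure D5:**
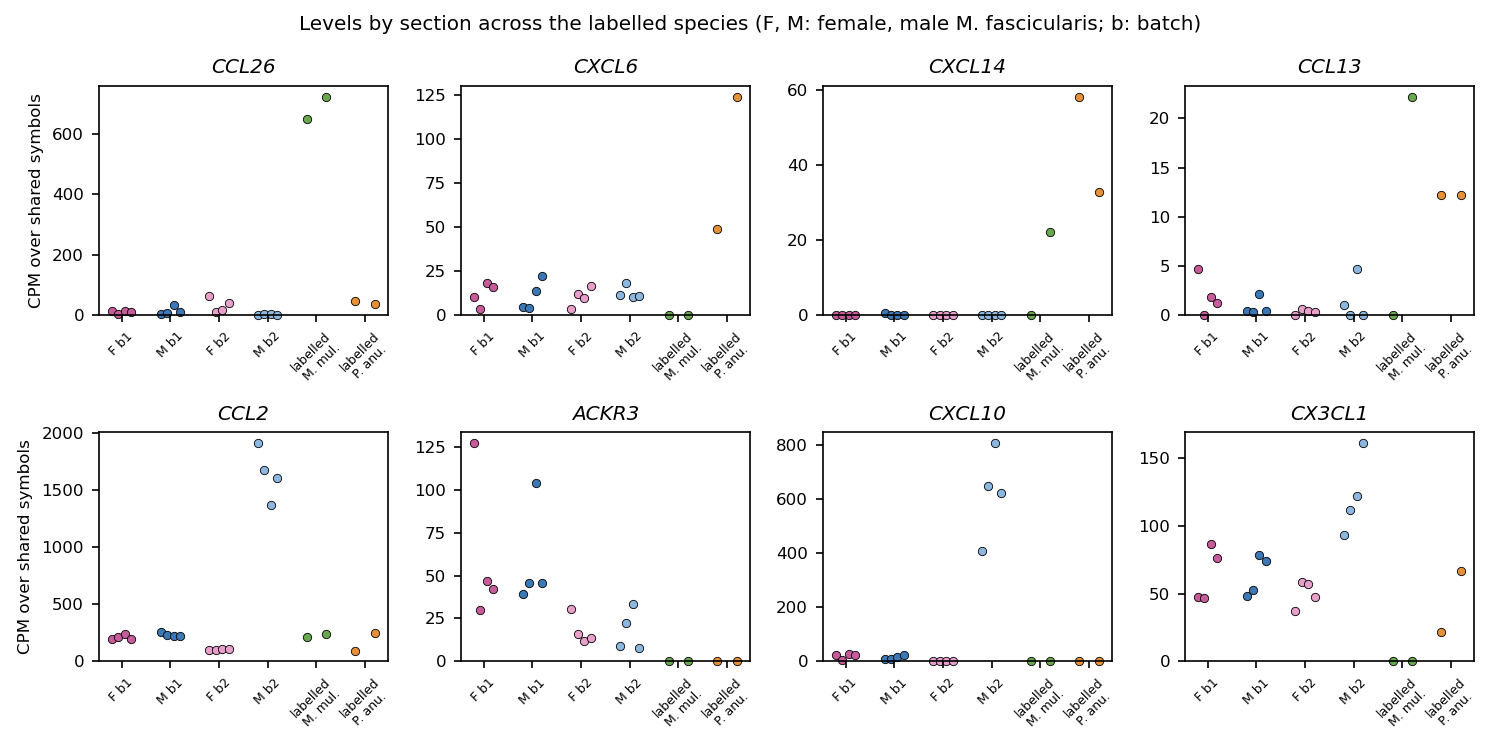
Levels of 8 members in CPM over the genes shared by symbol (y axis from 0) by section (points) for the 4 *M. fascicularis* specimens and the sections labelled *M. mulatta* and *P. anubis* (x axis). CCL26 lay at 649 and 725 CPM in the sections labelled *M. mulatta*, CXCL6 and CXCL14 were high in those labelled *P. anubis*, and ACKR3 was at 0 and 0.147 CPM in the latter. In the former ACKR3 had 0 UMIs, with floors of 30.9 and 22.2 CPM. The floors of the latter were 9.17 and 0.441 CPM.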

How the data were processed

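Spots were counted by the authors with Space Ranger, version 2.0.0 (12 sections) or 2.1.0 (7 sections) per the file headers; the submitters' processing notes name the build Mmul_10 for every sample, although the *M. fascicularis* identifiers are of that species, and the annotation is not given in the sources used here. The deposited values were raw UMI counts per gene and spot, gene totals per section, and, in the authors' deposited table, a Moran's I score with a p-value and an adjusted p-value per gene.

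CPM is UMIs per 1000000 over all features of a section under tissue. The 4 sections of a specimen were summed as 1 replicate and fitted with edgeR 4.0.16 in R 4.3.3 (filterByExpr, TMM, quasi-likelihood test, terms for batch and sex), with Benjamini-Hochberg adjustment over all genes tested. Marker-rich spots were tested the same way, with the specimen as a block. With 1 specimen per sex and batch, p-values measure only the spread between these samples. DESeq2 1.42.0 and limma 3.58.1 were alternatives. The fits were tested on simulated data: of genes changed 2-fold and 4-fold, the batch comparison recovered 16% and 96% (12604 genes run). The simulation set the same dispersion, 0.05, for all genes, changed only well-counted genes and made each batch change equal in both sexes. These shares therefore do not give the power for sparse members or for members such as CCL2, whose sex ratio differed between batches. No pair of 26 compared sections within a specimen agreed within sampling noise (lowest chi-square per degree of freedom 3.93).

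Members named with values had at least 100 UMIs, were called, or were singled out as stated. The members and lists were chosen with earlier results of these data known. Of 24 same-number pairs of sections 8 had a correlation over 0.1, among them all 4 female-male pairs of batch 1 (0.223 to 0.434); the section number as a block is an alternative. Some items are not reported here.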

Additional observations from a re-analysis of the deposited data

Results flagged for a closer look

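In 10 of 92 groups of 4 sections, 1 section stood far from the other 3 of its specimen by Dixon's criterion. Chance meets this criterion in about 1 group in 20 where values are normally distributed. Sparse counts are not, and a group with UMIs in 1 section only always meets it, so the count cannot be set against that rate. Section 1 of the female of batch 1 had the highest CXCR4 (88.2 CPM against 45.5 to 52.0), CXCL8 (26.7 CPM against 0.741 to 4.45) and CCL8 (13.7 CPM against 2.97 to 4.34). Its section 2 had the lowest CCR1, 2.57 CPM against 8.90 to 9.94. In the male of batch 1, ACKR3 was 67.2 CPM in section 3 against 25.7 to 30.2, and CXCL11 was 1.84 CPM in section 4 against 0.276 to 0.538. In the male of batch 2, CXCL6 was 11.6 CPM in section 2 against 6.42 to 7.14, CCR1 was 8.39 CPM in section 3 against 3.52 to 4.04, and CCL8 was 29.9 CPM in section 4 against 8.39 to 11. CCR6 was 0.494 CPM in section 3 of that specimen, from 1 UMI, and 0 in the other 3.

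CXCL9 was higher in the female than in the male in batch 1, by 0.749 CPM, and the difference was -14.7 CPM in batch 2. This change of direction between batches was not tested.

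CX3CR1 in endothelium-rich spots minus the other spots was 19.3 and 14.1 CPM in the female and male of batch 1, and -0.65 and -0.172 CPM in those of batch 2. This difference between batches was not tested either.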

How the results depend on the processing

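Between batches 6 members were called, and 12 of 43 were called with no filter on low counts (7.38% of all genes were), 13 of 20 with sections as samples and no block (40.7%), and 14 of 23 with the section number as a replicate block (39.5%); leaving out 1 section at a time gave 1 to 11. CCL26, not called between batches, turned to a positive difference with sections as samples (0.21), with the replicate block (0.25), in limma-voom (0.60) and in sections 1 and 2 alone (0.65), the last an alternative chosen after seeing the data. Between sexes 5 of 43 members were called with no filter (0.387% of all genes) against 0. The sex difference of ACKR3, not called, turned positive with sections as samples (0.02), with the replicate block (0.01), in sections 1 and 2 alone (0.57) and without 1 of 4 sections (0.0, 0.03, 0.11 and 0.15; range over all sections left out -0.26 to 0.15). The 59 calls in marker-rich spots became 5 without the specimen block, 39 to 60 with 1 specimen left out, and 27 in spots that no other list chose. In those spots CCL19 in satellite glia (-0.54), CXCL8 in fibroblast (-0.43) and endothelium spots (-1.28) and ACKR3 in granulocyte spots (-0.36) reversed, and CXCL10 in granulocyte spots did so without the male of batch 2 (-0.13; range with 1 specimen left out -0.13 to 0.76). With CPM over all features 5 members were lower in the sections labelled *M. mulatta* against 3. By the authors' deposited table, 0 members passed with a Moran's I of at least 0.1 and 1 passed in at least 12 of 16 sections, against 2. The cause was not tested for any of these. Depth limited the tests, since 22 of the 50 members were too sparse to be tested between batches.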

Other observations

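Pairs of members in the male of batch 2 often lay in the same spots. Of the spots with a CXCL11 UMI there, 59.6% also held CXCL10, against 30.3% of the other spots, with a median depth of 2225 against 946 UMIs. Of the spots with a CCL7 UMI, 82.9% also held CCL2, against 63.9% of the others. Spots of a section are not independent and deeper spots hold more of any gene, so these shares are a description.

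CXCL8 and CXCL16 had a higher level off tissue than under it in 12 of 15 sections each, with a median ratio of 1.61 and 1.32. By RefSeq gene order in T2T-MFA8v1.1, in which 47 of 50 members were found, CXCL8 lies in a run with CXCL1 and CXCL6.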
